A study of Mus musculus with 12 samples.

Results

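Ifitm1, Ifitm2 and Ifitm3 are neighbouring mouse genes that encode small interferon-induced transmembrane proteins. They are 3 of the 13016 genes in a table of RPKM values, reads scaled to transcript length and library size, for 12 libraries of early thymic progenitors, the first T-lineage stage found in the thymus. The genes were chosen by name with their values in this table already known, so their levels and differences are given as a description, with no test. Each library was made from 100 C57BL/6 cells that were sorted directly into lysis buffer, and full-length messenger RNA was copied with the SMARTer method.

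The 3 genotypes had 4 libraries each, and all of them carried floxed alleles of both Ezh2 and Runx1. In the dKO_Flt3ITD group a Rag1Cre recombinase was present together with 1 Flt3 ITD allele and 1 wild-type Flt3 allele. The dKO group had Rag1Cre with the floxed alleles alone. The control group had the floxed alleles without a recombinase, so it is not a wild-type strain. Ezh2 encodes the catalytic subunit of a Polycomb complex that methylates histones, Runx1 a transcription factor of blood development, and Flt3 a cytokine receptor that an internal tandem duplication makes active without its ligand. Rag1Cre acts from early lymphoid progenitors onward, and the labels do not give the share of sorted cells in which it had acted. Nothing in them says whether libraries of 1 group came from separate animals, so p-values below measure only the spread between these libraries. In bulk libraries of this kind, fewer cells of a type and less RNA per cell cannot be told apart.

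The whole reads behind the RPKM values totalled 13623436 to 33985972 per library, and each Ifitm gene had between 5076 and 233578 of them in a library, so counting error is small beside the spread between libraries. Ezh2 averaged 16.4 ± 5.59 RPKM in dKO_Flt3ITD and 22.6 ± 5.88 RPKM in dKO, against 39.8 ± 5.83 RPKM in control (SD, n = 4), with no overlap of either mutant group with control. In limma with Benjamini-Hochberg adjustment over 10690 genes its adjusted p was 0.0949 for dKO_Flt3ITD and 0.470 for dKO. Runx1 was not lower but higher, at 47.5 ± 11.8 RPKM in dKO_Flt3ITD and 46.4 ± 11.1 RPKM in dKO, against 21.2 ± 4.57 RPKM in control (SD, n = 4), with limma adjusted p of 0.124 and 0.184. This value takes in reads from exons that Cre leaves in place and cannot check the deletion, so every direction below rests on the labels. Flt3 averaged 33.2 ± 26.3 RPKM in dKO_Flt3ITD and 29.1 ± 11.5 RPKM in dKO, against 78.3 ± 25.7 RPKM in control (SD, n = 4), and did not pass. All 10 markers listed for early thymic progenitors, among them Kit, Cd44 and Notch1, had reads in every group, with summed levels of 532 to 653 RPKM in dKO_Flt3ITD, 557 to 688 RPKM in dKO and 713 to 1058 RPKM in control. Of these, Ccr9, a chemokine receptor that guides progenitors to the thymus, fell in dKO_Flt3ITD, to 0.0214 RPKM against 9.09 RPKM in control. Its log2 difference was -3.26, with a limma adjusted p of 0.00543 (0.0335 without library 1 of all groups). With voom on the whole reads the adjusted p of Ccr9 was 0.0975, which did not pass. Ccr9 was the only 1 of the 10 markers called in that comparison, where 0.505% of all tested genes fell. Its highest dKO_Flt3ITD library stood at 0.0855 RPKM. Libraries also differed by gene length, on which the Ifitm genes lie low: only 3.09% to 6.21% of tested genes are shorter. In library 1 of dKO_Flt3ITD the shortest tested genes stood above their mean over all libraries, by a median of 0.98 on the log2 scale. In library 1 of dKO they stood above it by 0.39, and in library 1 of control below it, at -0.37. The Ifitm values, the likenesses and the calls named below are therefore also given without library 1 of all 3 groups.

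IFITM proteins sit in the plasma membrane and in endosomes and lysosomes, where they hinder the fusion of enveloped viruses such as influenza virus with the membranes of the cell. In human cells IFITM1 is found mostly at the cell surface, whereas IFITM2 and IFITM3 carry a sorting signal that takes them into endosomes. Type I and type II interferons induce the genes through STAT-containing complexes, which bind interferon-stimulated response elements and GAS elements. Some stem cells hold high levels without interferon, and in mouse Ifitm1 and Ifitm3 are also known, as fragilis genes, from primordial germ cells.

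The genes lie within 55934 bases of mouse chromosome 7 in GENCODE release M21 on GRCm38, the build that mm10 names. In order along the chromosome they are Ifitm2 (ENSMUSG00000060591.9) at chr7:140954837-140955987 on the minus strand, Ifitm1 (ENSMUSG00000025491.14) at chr7:140967221-140969825 on the plus strand, and Ifitm3 (ENSMUSG00000025492.6) at chr7:141009586-141010770 on the minus strand. Ifitm2 and Ifitm3 have 2 exons each in 1 annotated transcript, and Ifitm1 has 3 annotated transcripts. The stretches that follow lie upstream of the RefSeq transcription start of each gene, from 180 to 51 bases before it. They are shown 5′ to 3′ on the gene's own strand because the 3 genes share a locus and differ in their values. They come from the RefSeq promoter table on GRCm38.p6, at chr7:140967896-140968025 for Ifitm1, chr7:140956012-140956141 for Ifitm2 and chr7:141010795-141010924 for Ifitm3. Capitals mark the longest run of letters that 2 of the 3 genes share within the 250 bases before their starts.
Ifitm1 upstream: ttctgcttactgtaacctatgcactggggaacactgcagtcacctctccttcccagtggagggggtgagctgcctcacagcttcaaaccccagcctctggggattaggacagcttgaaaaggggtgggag
Ifitm2 upstream: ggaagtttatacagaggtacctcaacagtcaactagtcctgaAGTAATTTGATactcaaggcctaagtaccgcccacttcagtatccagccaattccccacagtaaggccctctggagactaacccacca
Ifitm3 upstream: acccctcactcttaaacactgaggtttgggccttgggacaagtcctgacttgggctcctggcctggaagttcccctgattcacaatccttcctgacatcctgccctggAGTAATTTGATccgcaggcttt

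The run AGTAATTTGAT occurred in 9 of 32851 RefSeq promoters, 0.0274%, with those of Ifitm2 and Ifitm3 included. That count took in both strands and also the 50 bases after the start. The run was picked as the longest that these genes share, so nothing follows about them from its low share. In the 250 bases before the starts, Ifitm1 shared no more than 8 letters in a row with Ifitm2 and 7 with Ifitm3. Bases after the starts were not compared for shared runs. Each promoter was also searched on both strands, from 250 bases before the start to 50 after it, for the interferon-stimulated response element written GAAANNGAAA. Those letters stood in 1131 of the 32851 promoters, 3.44%. Ifitm2 had 1 match, starting 46 bases before its RefSeq start, and Ifitm3 had 2, starting 3 and 20 bases after its own. The 30-base sites around these matches, at chr7:140955979-140956008 for Ifitm2 and chr7:141010714-141010743 for Ifitm3, are given next with the matches in capitals.
Ifitm2 site: gGAAAAGGAAAttgctagagaaagggcggg
Ifitm3 site: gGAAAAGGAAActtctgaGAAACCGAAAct

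Ifitm1 had no match to these letters in its window. The GAS element, TTCNNNGAA, was found in 8.30% of promoters and, among the 3 genes, once in Ifitm3, 14 bases after the start, where it overlaps the second response element. The core letters bound by RUNX proteins, TGTGGT and TGCGGT, stood in 16.8% and 6.45% of promoters, and in the windows of none of the 3 genes. A match is a description of letters and not a bound site, and no match says only that these letters are not in this window; Ifitm1 also has annotated starts outside it.

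Ifitm1 had 10210, 8191, 3118 and 4726 RPKM in the dKO_Flt3ITD libraries 1 to 4, and 6037, 3017, 1843 and 3339 RPKM in the dKO libraries 1 to 4, against 426.4, 599.9, 511.9 and 209.2 RPKM in the control libraries 1 to 4. Every mutant library stood above every control library, and the mutant groups overlapped each other. On average Ifitm1 stood at 6561 ± 3225 RPKM in dKO_Flt3ITD and 3559 ± 1773 RPKM in dKO, against 437 ± 167 RPKM in control (SD, n = 4). By mean RPKM it was the gene of rank 8 of 13016 in dKO_Flt3ITD, of rank 22 in dKO and of rank 198 in control. The ratio of means was 15.0 for dKO_Flt3ITD over control and 8.15 for dKO over control. On the log2(RPKM + 1) scale the differences were 3.86 ± 0.43 and 3.0 ± 0.43 (SE). Between dKO_Flt3ITD and dKO the difference in Ifitm1 was 0.86 ± 0.43, which is within the spread of the libraries.

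**Figure D1:**
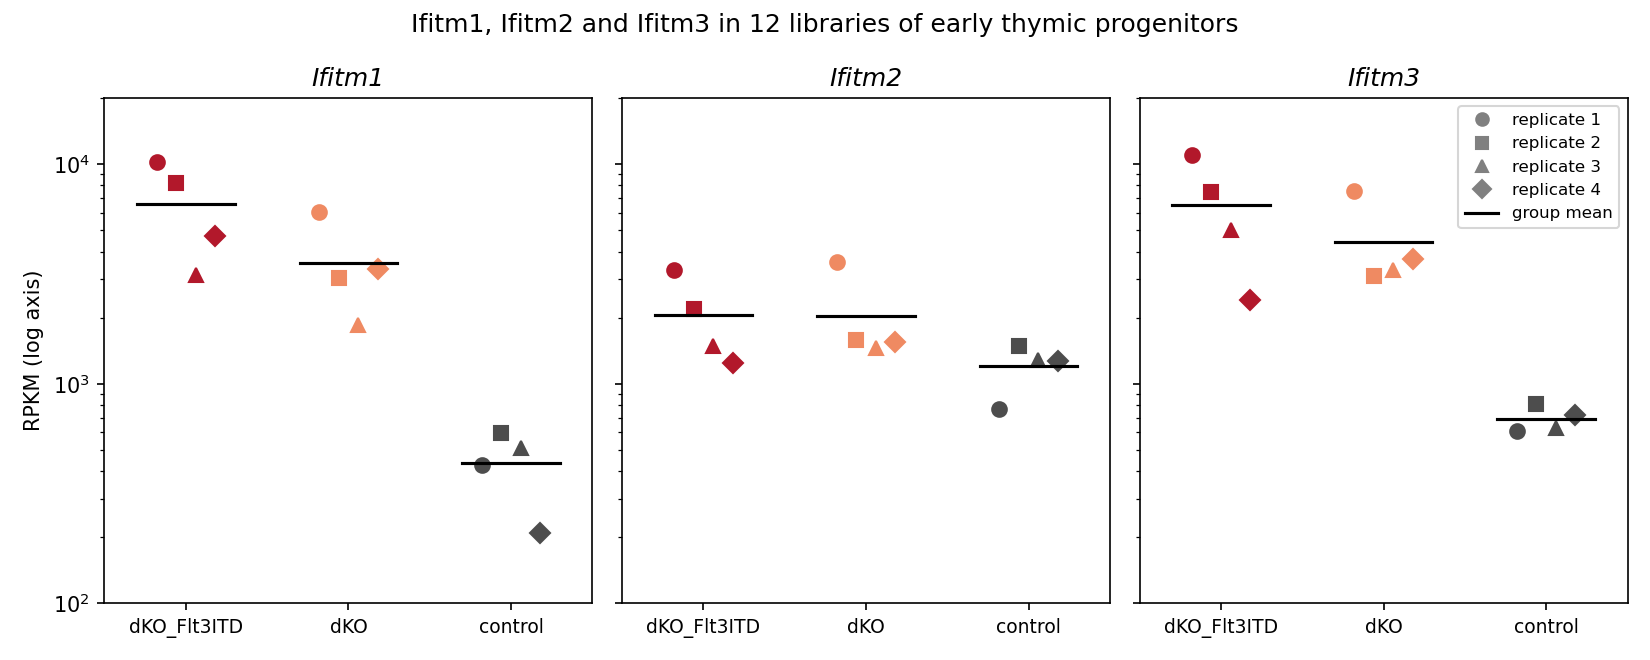
RPKM of Ifitm1, Ifitm2 and Ifitm3 (log axis) in each of the 12 libraries, by genotype, with the group mean as a line and the replicate number as the marker. For Ifitm1 and Ifitm3 the lowest mutant libraries, at 1843 and 2411 RPKM, lie above the highest control libraries, at 599.9 and 812.2 RPKM, while for Ifitm2 the groups overlap.

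Ifitm3 is the member best known for blocking influenza virus in endosomes. It had 11015, 7482, 5034 and 2411 RPKM in the dKO_Flt3ITD libraries, and 7574, 3083, 3302 and 3704 RPKM in the dKO libraries, against 610.4, 812.2, 628.3 and 722.5 RPKM in the control libraries, in the order of their numbers. The control values lay close together, and all 8 mutant values were above them. The highest dKO library was number 1, and the lowest mutant library was dKO_Flt3ITD 4. The means were 6485 ± 3661 RPKM in dKO_Flt3ITD and 4416 ± 2121 RPKM in dKO, against 693 ± 93.2 RPKM in control (SD, n = 4). Ifitm3 ranked 9 by mean in dKO_Flt3ITD and 12 in dKO, against 134 in control. The ratio of means was 9.35 for dKO_Flt3ITD over control and 6.37 for dKO over control, and the log2 differences were 3.03 ± 0.40 and 2.58 ± 0.40 (SE). The dKO_Flt3ITD and dKO libraries overlapped, with a log2 difference of 0.45 ± 0.40.

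Ifitm2, which is close to Ifitm3 in sequence, had overlapping groups. It had 3301, 2181, 1484 and 1245 RPKM in the dKO_Flt3ITD libraries, and 3588, 1582, 1458 and 1546 RPKM in the dKO libraries, against 767.3, 1487, 1280 and 1267 RPKM in the control libraries. All 3 groups overlapped: dKO_Flt3ITD 4 was below 3 of the control libraries, and the low end of the controls was library 1. The means were 2053 ± 922 RPKM in dKO_Flt3ITD and 2043 ± 1031 RPKM in dKO, against 1201 ± 306 RPKM in control (SD, n = 4). Its log2 differences were 0.71 ± 0.36 (dKO_Flt3ITD against control), 0.70 ± 0.36 (dKO against control) and 0.01 ± 0.36 (dKO_Flt3ITD against dKO), with SE. Without library 1 of every group the first and the second of these were 0.25 and 0.19, and without dKO 1 alone the second was 0.39, or without dKO_Flt3ITD 1 alone the first was 0.45. The same omission of library 1 of every group left Ifitm3 at 2.65 and 2.22 in these comparisons, and Ifitm1 at 3.62 and 2.72.

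The order of the mean levels was therefore dKO_Flt3ITD, dKO, control for each gene. For Ifitm1 and Ifitm3 the step between dKO_Flt3ITD and dKO lay within the spread of the libraries and the step between dKO and control did not. For Ifitm2 neither step exceeded it. Of all 10690 tested genes, 445 or 4.16% had every dKO_Flt3ITD library above every control library, and 420 or 3.93% had every dKO library above every control library. Both comparisons use the same control libraries. Since the genes were picked with their values known, nothing follows from these shares about Ifitm1 and Ifitm3. All 3 Ifitm genes passed the filter on low values, at least 1 RPKM in at least 4 libraries, in every group.

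The balance between the genes can be read within each library, where a factor that acts on all 3 alike cancels. The ratio of Ifitm1 to Ifitm2 was 3.09, 3.76, 2.10 and 3.80 in the dKO_Flt3ITD libraries, and 1.68, 1.91, 1.26 and 2.16 in the dKO libraries, against 0.556, 0.403, 0.400 and 0.165 in the control libraries. Every mutant library thus had more Ifitm1 than Ifitm2 per length, and every control library less. The ratio of Ifitm3 to Ifitm2 was 3.34, 3.43, 3.39 and 1.94 in dKO_Flt3ITD, and 2.11, 1.95, 2.27 and 2.40 in dKO, against 0.795, 0.546, 0.491 and 0.570 in control. Here too every mutant library lay above 1 and every control library below it, and the mutant groups overlapped through dKO_Flt3ITD 4.

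**Figure D2:**
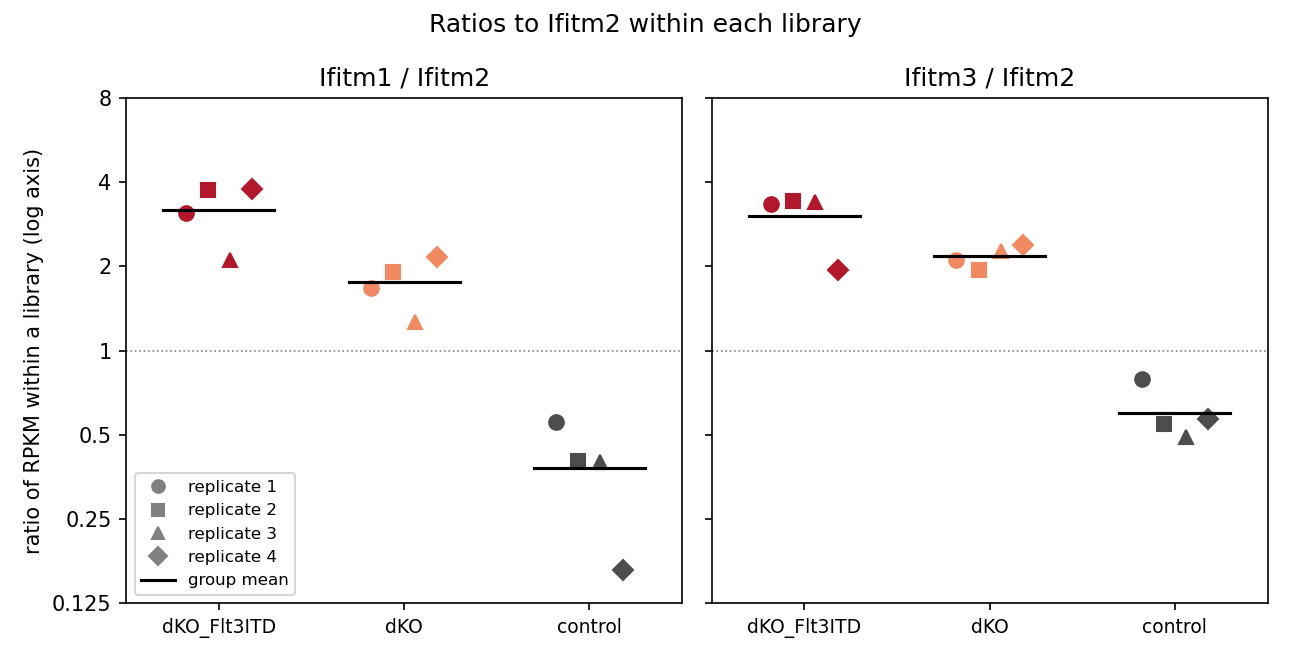
Ratio of RPKM of Ifitm1 to Ifitm2 (left) and of Ifitm3 to Ifitm2 (right) in each library, on a log axis that is dotted at 1, with group means as lines. All 8 mutant libraries lie above 1 and all 4 control libraries below it in both panels, with lowest mutant ratios of 1.26 and 1.94 and highest control ratios of 0.556 and 0.795.

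Ifitm1 and Ifitm3 kept nearer to each other. Their ratio, Ifitm1 over Ifitm3, was 0.927, 1.09, 0.619 and 1.96 in dKO_Flt3ITD, and 0.797, 0.979, 0.558 and 0.901 in dKO, against 0.699, 0.739, 0.815 and 0.290 in control, and all 3 groups overlapped. The highest of these came from dKO_Flt3ITD 4 and the lowest from control 4, the libraries where Ifitm3 and Ifitm1 were lowest in their groups. Ifitm2 made up 12.2% to 15.4% of the summed RPKM of the 3 genes in dKO_Flt3ITD and 18.0% to 22.1% in dKO, against 42.5% to 57.6% in control, with no overlap between any 2 groups.

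Summed over the 3 genes, the level was 24525, 17854, 9636 and 8383 RPKM in the dKO_Flt3ITD libraries, and 17199, 7682, 6602 and 8589 RPKM in the dKO libraries, against 1804, 2899, 2420 and 2199 RPKM in the control libraries. The lowest mutant sum was thus above the highest control sum. As a share of all recovered reads the genes took 0.679% to 1.43% in dKO_Flt3ITD and 0.449% to 1.08% in dKO, against 0.142% to 0.195% in control. The share depends on the other genes in a library, and its groups were ordered as the levels were.

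Over the 12 libraries the log2 levels of Ifitm1 and Ifitm3 had a Pearson r of 0.945, those of Ifitm2 and Ifitm3 0.801 and those of Ifitm1 and Ifitm2 0.716. After each group's mean was taken away, the order changed: r was 0.888 for Ifitm2 and Ifitm3, 0.685 for Ifitm1 and Ifitm2 and 0.619 for Ifitm1 and Ifitm3. These are descriptions over 12 libraries that share genotype, depth and gene-length effects. Within a genotype, Ifitm2 and Ifitm3 went up and down together more closely than either did with Ifitm1. Without library 1 of all groups these 3 r were 0.893, 0.598 and 0.273, and with the group means kept, r was 0.915 for Ifitm1 and Ifitm3, 0.690 for Ifitm2 and Ifitm3 and 0.607 for Ifitm1 and Ifitm2.

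The tested genes most like Ifitm1 by Pearson r over the 12 libraries were Chchd7 (0.951), H2-Q4 (0.944), Ptp4a3 (0.942), Socs2 (0.939) and Clec10a (0.935). Those most like Ifitm3 were Ccm2l (0.960), Chchd7 (0.958), the interferon-induced gene Ifi27l2a (0.954), Cox4i2 (0.949) and Ms4a6c (0.946). Chchd7, which encodes a small mitochondrial protein, stood on both lists. It averaged 142 RPKM in dKO_Flt3ITD and 102 RPKM in dKO, against 33.1 RPKM in control. Socs2, a feedback inhibitor of cytokine signalling that STAT5 induces, averaged 110 RPKM in dKO_Flt3ITD and 69.7 RPKM in dKO, against 2.76 RPKM in control.

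Ifitm2 was most like other genes altogether: Dad1 (0.934), a subunit of the enzyme that adds sugar chains to new proteins, the ATP synthase genes Atp5g3 (0.932) and Atp5g1 (0.930), Naa38 (0.924) and Saysd1 (0.923). This likeness rested in part on library 1 of each group: without these libraries r was 0.469 for Dad1, 0.441 for Atp5g3 and 0.735 to 0.790 for the others. The r values of the 5 genes most like Ifitm1 and of those most like Ifitm3 were 0.914 to 0.976 without the same libraries. With each group's mean taken away, Ifitm3 was most like Immp1l (0.973), Atp5k (0.968) and Dynlrb1 (0.967), Ifitm2 most like Naa38 (0.959), Hsbp1 (0.957) and Selk (0.947), and Ifitm1 most like Prr5 (0.932), B9d1 (0.928) and Guca1a (0.906). Without library 1 of all groups these r of deviations were 0.932 to 0.958 for the genes listed for Ifitm3, 0.771 to 0.946 for those of Ifitm2 and 0.915 to 0.946 for those of Ifitm1. With the group means kept, the same 9 genes were often unlike, with r between -0.23 and 0.75 over the remaining libraries.

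Other genes that interferons induce were set beside the Ifitm genes. Of 43 listed interferon-stimulated genes other than Ifitm, 42 were tested. In limma with Benjamini-Hochberg adjustment, 4 rose and 0 fell in dKO_Flt3ITD against control, where 0.992% of all tested genes rose and 0.505% fell. In dKO against control 1 rose and 0 fell, where 0.786% of all tested genes rose and 0.234% fell. The direction was nevertheless shared: the log2 difference was above 0 for 42 of 42 in dKO_Flt3ITD and 41 of 42 in dKO, with medians of 1.19 and 1.13, beside medians of 0.00 and 0.01 over all tested genes. No dKO_Flt3ITD library overlapped the controls for 6 of the 42 genes and no dKO library for 15 of them, all higher, beside 4.16% and 3.93% of all tested genes. Ifitm1 and Ifitm3 lay above these medians in both comparisons and Ifitm2 below them.

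The genes that rose in dKO_Flt3ITD were Ifi27l2a, Phf11d, Isg20 and Oas3. Ifi27l2a, which encodes a small hydrophobic protein, stood at 1955 ± 1308 RPKM in dKO_Flt3ITD and 137 ± 51.2 RPKM in control (SD, n = 4), with a log2 difference of 3.38 and a limma adjusted p of 0.00675. Isg20, an exonuclease that degrades RNA, stood at 301 ± 212 RPKM in dKO_Flt3ITD and 37.5 ± 28.0 RPKM in control, with an adjusted p of 0.0326 in limma. Oas3, a sensor of double-stranded RNA, rose in both groups, with log2 differences of 1.93 in dKO_Flt3ITD and 1.89 in dKO and limma adjusted p of 0.0326 and 0.0418. Isg15, a ubiquitin-like modifier, averaged 193 RPKM in dKO_Flt3ITD and 153 RPKM in dKO, against 35.1 RPKM in control, and did not pass (limma adjusted p 0.106 and 0.136).

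Of 18 listed interferon-gamma-induced GTPases and related genes 16 were tested, and 2 rose in dKO_Flt3ITD and 5 in dKO, where 0.992% and 0.786% of all tested genes rose. None of the list fell, where 0.505% and 0.234% of all tested genes did. The median log2 difference from control was 1.34 in dKO_Flt3ITD and 2.02 in dKO. Iigp1, an immunity-related GTPase that acts on vacuoles of intracellular parasites, stood at 70.5 ± 28.7 RPKM in dKO_Flt3ITD and 123 ± 76.7 RPKM in dKO, against 12.01 ± 10.9 RPKM in control (SD, n = 4), with limma adjusted p of 0.0430 and 0.0155. Igtp, of the same family, rose in both as well, with log2 differences of 1.91 and 1.996. The guanylate-binding protein genes Gbp2, Gbp4 and Gbp9 passed in dKO, with log2 differences of 2.57, 3.40 and 2.89 and limma adjusted p of 0.0210, 0.0207 and 0.0393. Where Ifitm1 and Ifitm3 had their highest means in dKO_Flt3ITD, 14 of the 16 genes of this list had a log2 difference below 0 between dKO_Flt3ITD and dKO, with a median of -0.49. Over all tested genes 50.3% had a difference above 0 there, with a median of 0.00. The 16 genes were read in the same libraries, so their directions are not independent. Between these groups limma called 0 of 10690 genes, or 0%, and so did voom. Before adjustment 824 genes in limma and 835 in voom had a p under 0.05.

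**Figure D3:**
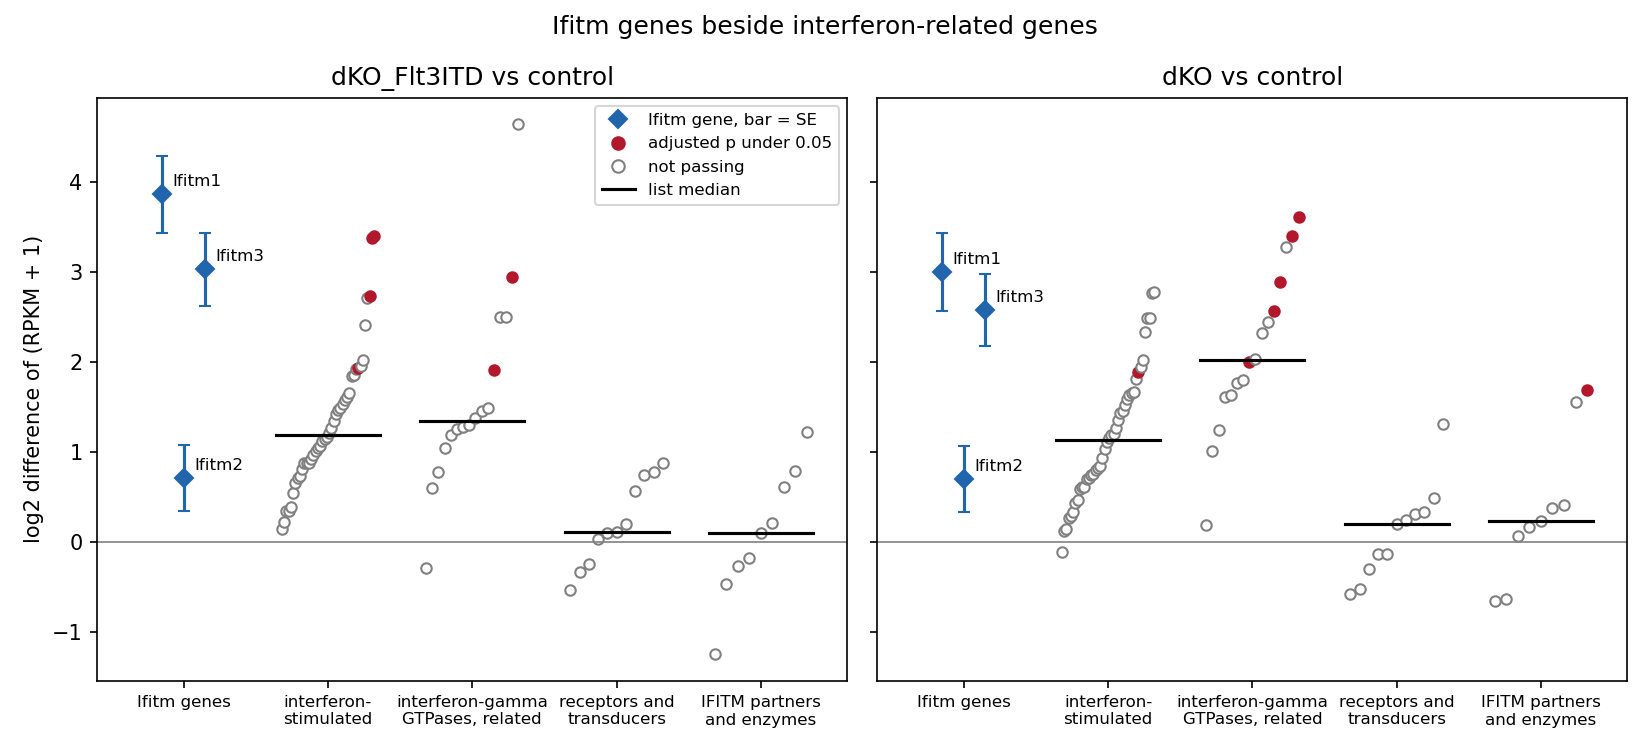
Log2 differences of RPKM + 1 from control for the Ifitm genes (blue, bar = SE) and for listed interferon-related genes (points, filled where the limma adjusted p was under 0.05, with the list median as a line), for dKO_Flt3ITD on the left and dKO on the right. Ifitm1 and Ifitm3 lie above the medians of the interferon-stimulated genes, 1.19 and 1.13, and Ifitm2 lies below them.

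The calls on both lists depended on single libraries. Leaving out 1 library at a time gave 1 to 13 interferon-stimulated genes that rose in dKO_Flt3ITD, with 13 without dKO_Flt3ITD 4, 2 without control 1 or 3, and 1 without control 2, control 4 or any other dKO_Flt3ITD library. It gave 0 to 9 in dKO, with 9 without dKO_Flt3ITD 4 and 0 without any 1 of the controls, of dKO 1, 3 and 4, or dKO_Flt3ITD 2. For the GTPase list the range was 0 to 4 in dKO_Flt3ITD, with 4 without dKO 1 or dKO_Flt3ITD 4, 1 without control 3, control 4 or dKO 4, and 0 without control 1 or without dKO_Flt3ITD 1, 2 or 3. It was 0 to 6 in dKO, with 3 without control 3, 2 without control 4, 1 without control 1 and 0 without dKO 3 or dKO 4. With voom on the recovered reads, which called 27 of 10690 genes in dKO_Flt3ITD and 5 in dKO, 0 genes of both lists passed. Of the genes of these 2 lists named as rising, only Ifi27l2a in dKO_Flt3ITD passed in all 12 fits that left out 1 library, where its limma adjusted p reached 0.0282 at most. Without library 1 of all groups together its adjusted p was 0.0655, and of the calls on both lists Iigp1 in dKO alone passed, at 0.0446.

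The genes that carry the interferon signal did not pass in any comparison. All 11 tested receptor and transducer genes, of 12 listed, had limma adjusted p above 0.05, with median log2 differences of 0.11 in dKO_Flt3ITD and 0.20 in dKO. Ifngr1, a receptor chain for interferon gamma, averaged 68.8 RPKM in dKO_Flt3ITD and 73.3 RPKM in dKO, against 60.9 RPKM in control. Of 15 listed ligands and nucleic acid sensors 9 were tested and none passed; the ligand genes listed were not analysed here. Tmem173, which encodes the adaptor STING, had the highest mean level on that list and averaged 75.3 RPKM in dKO_Flt3ITD and 79.7 RPKM in dKO, against 115 RPKM in control. None of 6 tested genes for other antiviral restriction factors passed, among them Apobec3, at 147 RPKM in dKO_Flt3ITD and 173 RPKM in dKO, against 149 RPKM in control.

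Proteins that bind or modify IFITM proteins were listed too. Of 9 tested genes, Cd81 rose in dKO and none rose in dKO_Flt3ITD, where 0.786% and 0.992% of all tested genes rose. Cd81 encodes a tetraspanin that forms surface complexes with IFITM1 in human B cells. Cd81 averaged 421 ± 94.0 RPKM in dKO_Flt3ITD and 598 ± 218 RPKM in dKO, against 188 ± 81.7 RPKM in control (SD, n = 4), with limma adjusted p of 0.0791 and 0.0160, and no mutant library overlapped the controls. Such a lack of overlap, with every mutant library higher, was seen for 4.16% of all tested genes in dKO_Flt3ITD and 3.93% in dKO. Cd81 lost its call in dKO in 2 of the 12 fits that left out 1 library, where the limma adjusted p reached 0.0588, with voom, at 0.0525, and without library 1 of all groups, at 0.0616. Fyn, a kinase known to phosphorylate human IFITM3 within its sorting signal, averaged 38.1 RPKM in dKO_Flt3ITD and 59.0 RPKM in dKO, against 18.1 RPKM in control, and did not pass. The ubiquitin ligase gene Nedd4, the palmitoyltransferase gene Zdhhc20 and the protease gene Zmpste24 did not pass either, with log2 differences between -1.24 and 0.38.

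Other genes of the family were low. Ifitm6, the next gene on the chromosome at 4928 bases from Ifitm3, had 38.9 RPKM from 573 reads in dKO_Flt3ITD 1, 32.0 RPKM from 420 reads in dKO_Flt3ITD 4 and 4.64 RPKM from 50 reads in control 2. It was listed at 0 in the other 9 libraries, the 4 of dKO among them. Ifitm7, on chromosome 16, had 0.764, 1.05, 0.515 and 9.67 RPKM in the dKO_Flt3ITD libraries, and 0.623, 0.152, 0.287 and 1.12 RPKM in the dKO libraries, against 0.0426, 0.0580, 0.0927 and 0.0400 RPKM in the control libraries. These control values come from 1 or 2 reads each. Both genes fell under the filter on low values, so neither was tested. Tmem91, a more distant relative, averaged 25.1 RPKM in dKO_Flt3ITD and 23.1 RPKM in dKO, against 16.4 RPKM in control, and did not pass. Ifitm5 and Ifitm10 were not analysed here.

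The genes on either side of the cluster were read as well. The nearest 4 genes of the table on each side were Ric8, Sirt3, Psmd13 and Athl1 before Ifitm2, and Ifitm6, B4galnt4, Pkp3 and Sigirr after Ifitm3. Of these 8 genes 6 were tested, and none passed in any comparison. Athl1, which ends 7172 bases before Ifitm2, averaged 7.76 ± 4.71 RPKM in dKO_Flt3ITD and 3.92 ± 1.32 RPKM in dKO, against 4.82 ± 3.55 RPKM in control (SD, n = 4). The log2 differences of the 6 genes from control lay between -0.62, for Sirt3 in dKO_Flt3ITD, and 1.5, for Pkp3 in dKO_Flt3ITD, whose SE was 0.71.

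**Figure D4:**
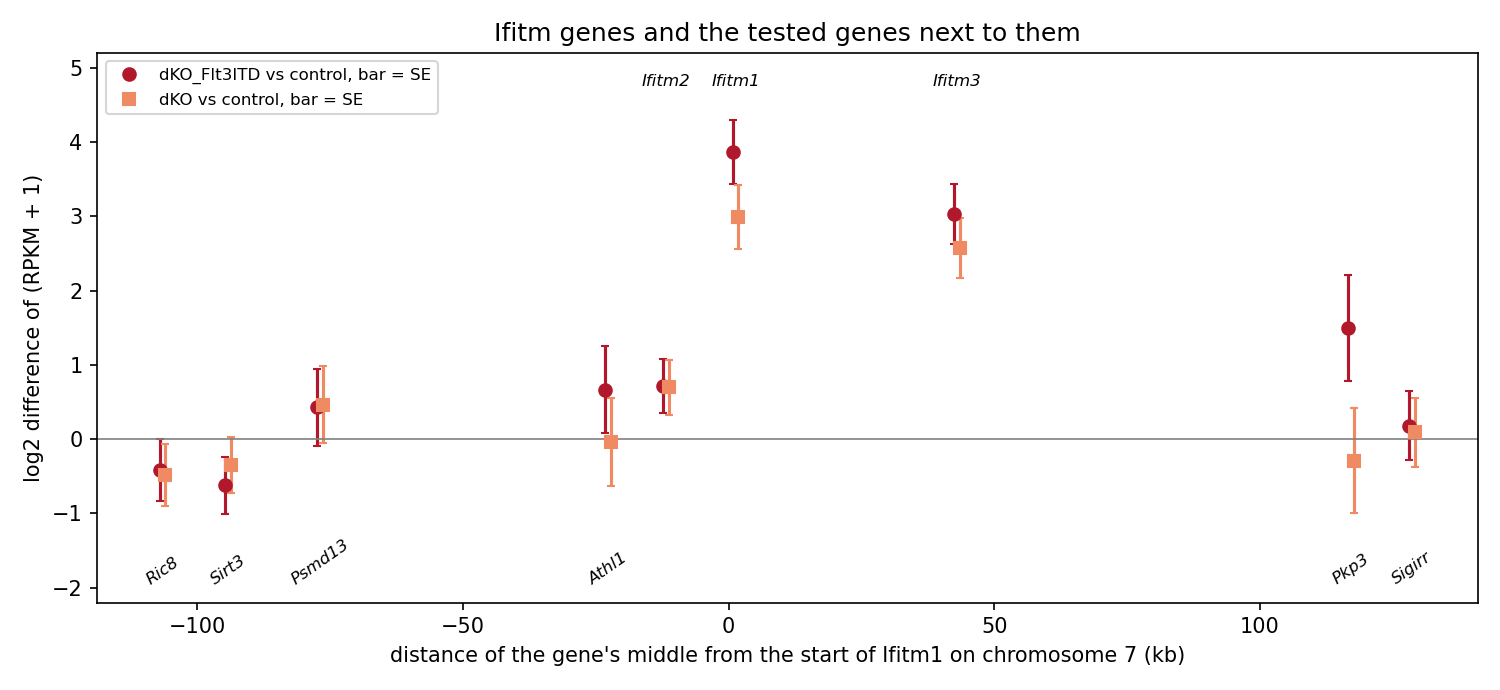
Log2 differences of RPKM + 1 from control with their SE for Ifitm1, Ifitm2, Ifitm3 and the 6 tested genes among the nearest 4 on each side, by the distance of each gene's middle from the start of Ifitm1 (kb). Ifitm1 at 3.86 and 3.0 and Ifitm3 at 3.03 and 2.58 stand above the neighbours, whose differences lie between -0.62 and 1.5.

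Some reads of these genes can be shared with other genes. In GENCODE transcripts, 5.02% of the distinct 50-base runs of Ifitm1, 48.5% of those of Ifitm2 and 10% of those of Ifitm3 also occurred in transcripts of other genes, the other Ifitm genes and pseudogenes among them. Much of the share of Ifitm2 is due to Gm45717, an annotated gene on the same strand that overlaps it and is not analysed here; without it the share was 22.8%. The level of Ifitm2 is therefore the least certain of the 3. Neither the read length, nor the strand setting, nor the treatment of shared reads is given in the sources used here.

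Markers of other cell types were read beside the Ifitm levels. For the calls that follow, the shares over all tested genes were 0.992% higher in dKO_Flt3ITD against control and 0.786% higher in dKO. The summed RPKM of 8 of 9 stem and progenitor markers was 764 to 3945 in dKO_Flt3ITD and 1055 to 3691 in dKO, against 360 to 806 in control. Most of it came from Ly6a, itself known to be induced by interferon, at 1689 ± 1451 RPKM in dKO_Flt3ITD and 1689 ± 1258 RPKM in dKO, against 481 ± 204 RPKM in control (SD, n = 4), which did not pass (limma adjusted p 0.231 and 0.235). Among the 7 stem markers tested, Procr rose in both mutant groups and Hlf and Myct1 in dKO_Flt3ITD, and Slamf1 was listed at 0 in all control libraries. The macrophage markers, 9 of them in the table, summed to 53.2 to 154 RPKM in dKO_Flt3ITD and 49.4 to 152 RPKM in dKO, against 19.2 to 66.8 RPKM in control. Of the 8 tested, Emr1 and Spic rose in dKO_Flt3ITD and Mrc1 in dKO, while Vcam1 was listed at 0 in all dKO_Flt3ITD libraries. The other tested macrophage markers did not pass in dKO_Flt3ITD. Their log2 differences from control there were -1.57 for C1qb, 0.04 for C1qc, 0.07 for Cd68, 0.59 for Csf1r, 0.64 for Mrc1 and 1.29 for C1qa. Leaving out 1 library at a time, Emr1 passed in 5 of 12 fits, Spic in 4 and Mrc1 in 10. The granulocyte and monocyte markers summed to 98.3 to 1413 RPKM in dKO_Flt3ITD and 130 to 314 RPKM in dKO, against 113 to 402 RPKM in control. Among the 4 tested, Ctsg rose in dKO_Flt3ITD. There the log2 difference from control was 3.85 for Prtn3, -1.50 for Mpo and -0.10 for Lyz2, and none of these passed. Mpo reached 721 RPKM in its highest dKO_Flt3ITD library, beside a group median of 34.7 RPKM. Dendritic cell markers, 7 of 8 in the table, summed to 62.8 to 386 RPKM in dKO_Flt3ITD and 55.1 to 173 RPKM in dKO, against 25.5 to 109 RPKM in control, with Itgax listed at 0 in all dKO_Flt3ITD libraries. Most of this sum came from H2-Ab1, which averaged 165 RPKM in dKO_Flt3ITD and 110 RPKM in dKO, against 46.4 RPKM in control. Ccr7, Itgax, Zbtb46 and Xcr1 averaged below control in both mutant groups. Siglech averaged above it in both, and Irf8 only in dKO_Flt3ITD. Without library 1 of all groups none of the calls on Procr, Hlf, Myct1, Emr1, Spic, Mrc1 and Ctsg passed: the limma adjusted p was 0.0622 for Procr and Hlf and 0.0829 for Myct1 in dKO_Flt3ITD, 0.0574 for Procr in dKO, and 0.126 to 0.211 for the other 4. With voom on the recovered reads none of these calls passed either, with adjusted p from 0.124 for Mrc1 to 0.346 for Procr, both in dKO. No tested marker of dendritic cells, B cells, natural killer cells, later thymocytes, megakaryocytes or stroma passed in any comparison. The part of these cells or programmes in the Ifitm levels was not tested. Erythroid markers reached 2667 RPKM in dKO 1 and at most 1.74 RPKM elsewhere; without dKO 1 the log2 difference from control was 2.28 for Ifitm3 in dKO and 0.39 for Ifitm2.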

How the data were processed

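Per the labels' protocols, 100 cells per library were sorted into lysis buffer and full-length libraries were made with SMARTer. The build mm10 and the tools HTSeq 0.5.4p5, TopHat2 2.0.10 and SAMtools 0.1.19 are named in the submitters' processing notes. The authors deposited RPKM values for 13016 genes. Neither the total they divided by, nor the annotation, strand setting or choice of genes is given in the sources used here. Whole reads were recovered from the steps between low values, within 0.001 of a whole number for 100% of genes. Intervals from reads cover counting error only, since reads amplified from few cells are not independent molecules.

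Genes at 1 RPKM or more in at least 4 of 12 libraries were fitted on the scale log2(RPKM + 1) with limma 3.58.1 (R 4.3.3). The fit used an intensity trend, all 12 libraries and 9 residual degrees of freedom, with two-sided tests and Benjamini-Hochberg adjustment at 0.05. Log2 differences on this scale understate the change of low genes. Libraries of 1 group differed by more than sampling noise (chi-square per degree of freedom 122 to 692). The Ifitm genes, the gene and marker lists and the rule for named genes were chosen with earlier results of these data known. The rule names listed genes that passed, at most 6 a list or the highest one, the 5 and 3 genes most like each Ifitm gene, and 4 neighbours a side. Some items that it gives are not reported here. Of the alternatives, gene-length trend removal and the r of deviations without library 1 were chosen after seeing the data. The steps were tested on simulated data. Python 3.11.15, numpy 2.4.6, pandas 2.3.3 and matplotlib 3.10.9 were used.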

Additional observations from a re-analysis of the deposited data

Results flagged for a closer look

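Among 21 groups of 4 values examined for Ifitm levels, sums and ratios, 3 held a library far from the other 3. By chance the rule flags about 1 in 20 groups of normally spread values. The sums and ratios were made from the same levels, so the 21 groups are not independent. That rate therefore cannot be set against the number flagged. Ifitm2 stood at 3588 RPKM in dKO 1, where the other dKO libraries lay between 1458 and 1582 RPKM. Ifitm3 stood at 7574 RPKM in the same library, where the others lay between 3083 and 3704 RPKM. The ratio of Ifitm3 to Ifitm2 was 1.936 in dKO_Flt3ITD 4, where the other dKO_Flt3ITD libraries lay between 3.34 and 3.43.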

How the results depend on the processing

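The log2 differences of Ifitm1 and Ifitm3 from control kept their direction under 14 alternatives and 12 omissions of 1 library: Ifitm1 ranged from 3.54 to 4.17 in dKO_Flt3ITD and from 2.62 to 3.27 in dKO, and Ifitm3 from 2.65 to 3.43 and from 2.22 to 2.71. Ifitm2 ranged from 0.25 to 0.92 and from 0.19 to 0.82. Several of these fits cannot change a log2 difference: the other filters, no intensity trend, the 8 compared libraries alone and the replicate block. Nor can leaving out a library of the group that is not compared. Between dKO_Flt3ITD and dKO, Ifitm2 ranged from -0.25 to 0.32, so it has no stable sign.

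The number of all genes that passed moved more. For dKO against control, 109 in limma became 64 with no filter, 210 with array weights, 5 with voom, 45 without library 1 of all groups, and 58 to 150 when 1 library was left out. For dKO_Flt3ITD against control, 160 became 91 with no filter, 27 with voom, 105 without library 1 of all groups, and 94 to 187 when 1 library was left out. For dKO_Flt3ITD against dKO, limma and voom passed 0 genes, with 824 and 835 at an unadjusted p under 0.05. There, a pseudocount of 5 gave 3, no filter, a filter of 5 RPKM, equal medians, the 8 compared libraries and omission of library 1 of all groups gave 1 each, equal RPKM sums, array weights and removal of the gene-length trend gave 2 each, and leaving out 1 library gave 0 to 6. Equal RPKM sums shifted the median of all genes by -0.21 in dKO_Flt3ITD against control and gave 84 higher and 84 lower genes, against 106 and 54 as deposited. Same-numbered libraries had correlations of deviations between -0.147 and 0.126, beside -0.166 to 0.2 for libraries of different numbers. These values show no sign of pairing by number but cannot exclude it, and the labels do not say whether the numbers pair libraries. With replicate number as a block, 85 genes passed in dKO against control, 116 in dKO_Flt3ITD against control and 0 in dKO_Flt3ITD against dKO. The block cannot change the log2 differences, because every group holds the same replicate numbers. The causes were not tested.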
